A study of Homo sapiens with 4 samples.

Results

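The 35 genes examined here encode the machinery that copies DNA in S phase and several of its regulators, a group known for control by E2F transcription factors. They were chosen by gene symbol as a functional group, without a cut on measured values but with earlier results of these data known. All 35 were found among the 16376 genes of the expression table. RNA of LASCPC-01 cells was sequenced after exposure to PBS (2 libraries) or to fluoxetine dissolved in PBS (2 libraries). LASCPC-01 is a human neuroendocrine prostate cancer (NEPC) line made by expression of NMYC with activated AKT1, fluoxetine is an antidepressant that blocks serotonin uptake, and the labels give the genotype of every sample as WT. All 4 titles carry day 3, whereas the study's text puts the exposure at 5 µM for 48 h, and the titles of the fluoxetine samples read PP where the treatment label reads Fluoxetine. A single line was used, and separate cultures are not stated for the replicates, so p-values measure the spread between these libraries, which may be technical.

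Replication starts when the origin recognition complex, CDC6 and CDT1 load the ring of MCM2 to MCM7 onto DNA in G1. In S phase, CDC45 and the GINS complex join that ring to form the active helicase, the PCNA clamp is placed by replication factor C, and the polymerases copy the strands. Most of these genes are transcribed around the G1/S boundary by E2F factors, which are held in check by RB proteins, and loss of RB function is a known feature of NEPC.

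The promoters of the genes were read first, since E2F elements are what the genes are known to share. RefSeq promoter sequences (GRCh38.p14, from 250 bases before to 50 bases after each transcription start) were matched by symbol for 31 of the 35 genes. The others, CCNE2, GINS4, MCM4 and MCM5, were not matched. Each window was searched on both strands for 4 spellings of the E2F element, TTTCCCGC, TTTGGCGC, TTTCGCGC and TTTGCCGC, and for the CCAAT box. At least 1 of the 4 spellings was found in 18 of the 31 genes (58.1%), against 677 of 10250 tested genes with a promoter sequence (6.61%) and 3.32% of all 35116 windows. Among genes with a promoter sequence, 14 of 40 other replication genes held one. So did 4 of 21 G1/S regulators and 2 of 14 G2 and mitosis genes. The genes come from a group known for control by E2F, so a high share was partly built into the choice. CCAAT on either strand was found in 20 of the 31 (64.5%), against 43.6% of the tested genes, and 11 genes held both. The share with CCAAT was 52.5% in the other replication genes, 47.6% in the G1/S regulators and 85.7% in the G2 and mitosis genes. A match is a description of the letters in the window, not evidence of a bound site.

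One stretch of 50 bases is shown for 8 genes, 1 for each role, so that the element can be seen in its setting. Each runs 5′ to 3′ along the gene's strand, and capitals mark the E2F element, which reads in reverse complement where it lies on the opposite strand. The stretches lie at chr16:88803733-88803782 on the + strand (CDT1), chr7:100101398-100101447 on the - strand (MCM7), chr16:85688957-85689006 on the - strand (GINS2), chr20:5126653-5126702 on the - strand (PCNA), chr12:132687343-132687392 on the - strand (POLE), chr19:48170430-48170479 on the - strand (LIG1), chr18:657593-657642 on the + strand (TYMS) and chr20:33686386-33686435 on the - strand (E2F1).
CDT1: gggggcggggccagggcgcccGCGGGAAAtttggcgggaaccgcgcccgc
MCM7: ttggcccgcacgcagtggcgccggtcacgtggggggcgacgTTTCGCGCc
GINS2: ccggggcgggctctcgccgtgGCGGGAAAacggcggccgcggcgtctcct
PCNA: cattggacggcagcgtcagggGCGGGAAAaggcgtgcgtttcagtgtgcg
POLE: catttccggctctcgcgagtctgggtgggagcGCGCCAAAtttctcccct
LIG1: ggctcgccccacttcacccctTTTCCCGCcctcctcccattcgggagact
TYMS: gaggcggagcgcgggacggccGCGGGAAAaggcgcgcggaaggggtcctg
E2F1: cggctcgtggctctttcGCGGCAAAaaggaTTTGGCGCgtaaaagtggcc

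In 12 of the 18 genes with an element, at least 1 copy began within the 60 bases before the start. The element began at -59 in PCNA, at -35 in CDT1, at -31 in GINS2 and at -9 in MCM7, counted from the transcription start. The E2F1 promoter held copies on both strands, beginning at -33 and -20, and 5 genes (E2F1, MCM2, MCM3, MCM6 and MCM7) held more than 1 copy in 1 window. In MCM2 and MCM6, copies on opposite strands overlapped, beginning 4 bases apart. The 4 MCM genes with a promoter sequence all held the element, as did 3 of 4 genes of the CDC45 and GINS role, whereas only RFC3 and PCNA did among the 6 genes of the clamp and its loader. The 13 genes with none of these letters in the window were ORC1, ORC6, MCM10, CDC45, RFC1, RFC2, RFC4, RFC5, POLD1, PRIM1, FEN1, RRM1 and RRM2.

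The level of each gene was taken as FPKM, fragments scaled to the length of the gene and to the depth of the library. Levels of different genes therefore depend on the length used for each, which need not be that of the RNA in these cells. The deposited FPKM resolved into whole reads for 15991 of the 16080 genes above 0, which gave library depths between 32873603 and 34831389. The 35 genes were backed by 586 (ORC1, PBS replicate 1) to 15912 (MCM7, fluoxetine replicate 1) reads in a library, so that counting error weighed more on the genes with fewer reads. Of the neuroendocrine markers, NCAM1 (44.3 to 52.0 FPKM) and INSM1 (21.7 to 24.2 FPKM) were high in all libraries, whereas SYP did not exceed 0.629 FPKM, CHGA did not exceed 0.0886 FPKM and NEUROD1 did not exceed 0.0923 FPKM. ENO2 was at 2.76 and 3.10 FPKM in PBS and 2.07 and 2.10 FPKM in fluoxetine. The luminal marker KLK3 did not exceed 0.256 FPKM, and the leukocyte marker PTPRC and the endothelial marker PECAM1 did not exceed 0.0318 and 0.0157 FPKM. Of the 3 fibroblast markers, COL1A1 was the highest, at 1.83 to 2.75 FPKM.

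The replication genes were well expressed under both conditions. Their mean FPKM over the 4 libraries ran from 5.80 for CCNE2, the cyclin E2 that activates CDK2 at G1/S, to 162.6 for PCNA, the sliding clamp, a 28.0-fold range. Of the 35 genes, 31 were at or above the median level of all genes tested, and the lowest was at the 42.7th percentile. Together they took 0.515% and 0.502% of the reads on listed genes in the PBS libraries and 0.528% and 0.519% in the fluoxetine libraries. The summed level was 3929 and 3928 TPM in PBS and 3887 and 3963 TPM in fluoxetine (TPM are FPKM rescaled to the same total in each library), so the PBS values lay between the fluoxetine values on that scale.

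**Figure D1:**
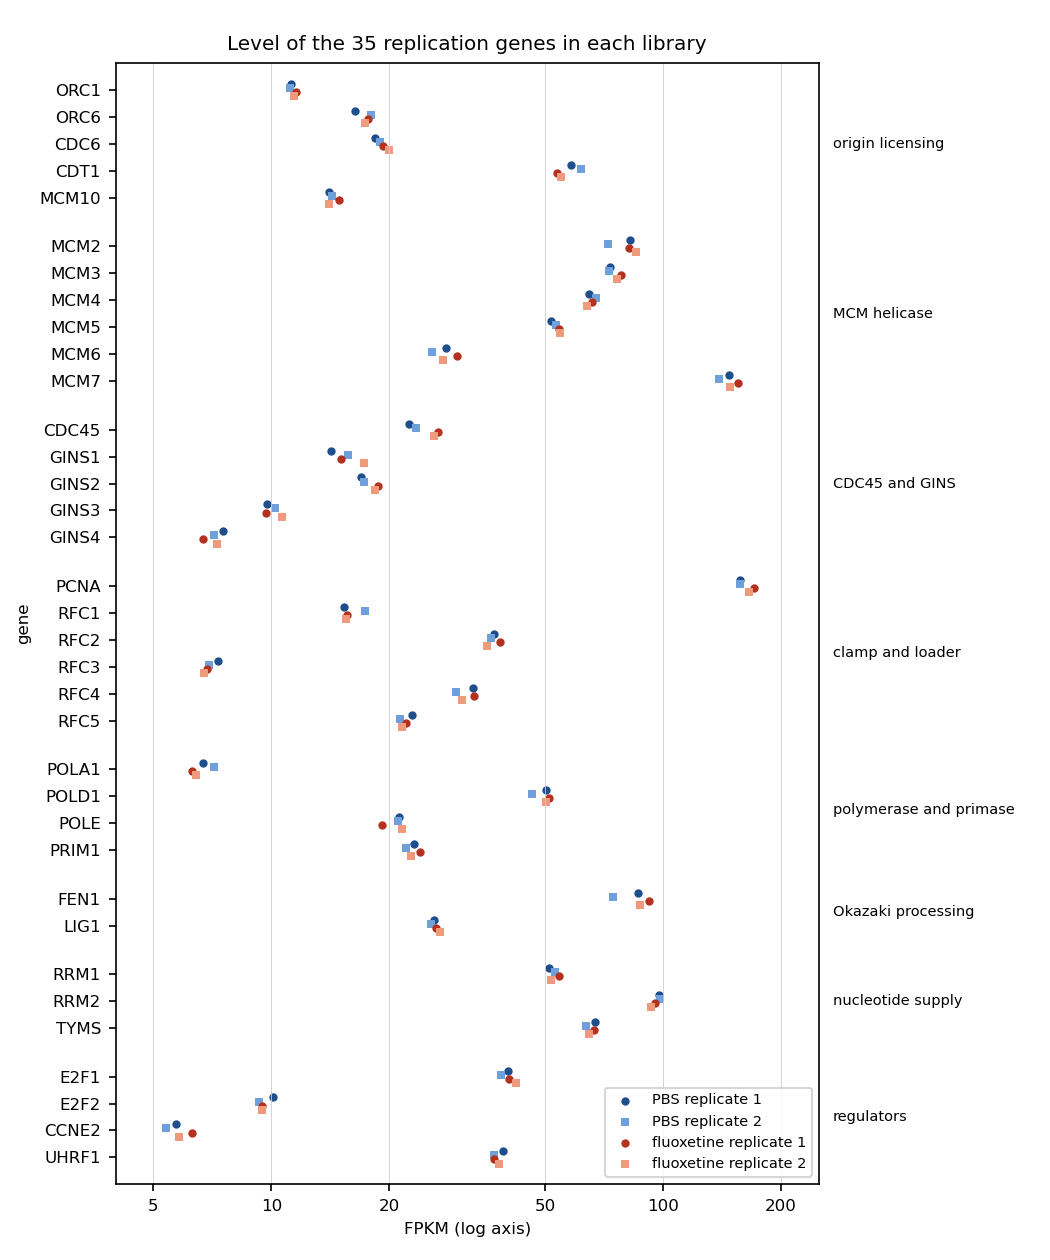
FPKM (log axis) of the 35 genes in each library, grouped by role; circles are replicate 1 and squares replicate 2, blue for PBS and red for fluoxetine. The genes span 28.0-fold between CCNE2 and PCNA, and the 4 libraries of a gene lie close together.

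Fluoxetine was compared with PBS to ask whether RNA of the replication machinery differed between the conditions. None of the 35 genes passed an adjusted p (Benjamini-Hochberg) of 0.05 in limma on log2(FPKM + 0.1), in which 30 of 12663 genes tested did (0.237%). At an unadjusted p under 0.05, CDC45 was the 1 gene higher under fluoxetine (3.73% of all genes tested) and 0 genes were lower (4.79% of all genes tested). Limma voom on the solved reads also called 0 of the 35 at an adjusted p of 0.05, with CDC45 and FEN1 under an unadjusted 0.05. All fold changes were small: the log2 fold change, fluoxetine over PBS, ran from -0.15 (CDT1) to 0.20 (CDC45), or from -9.72% to 14.5%. Of the 95% intervals, 34 of 35 held 0, and none reached beyond -0.33 or 0.36. Standard errors were between 0.07 and 0.10. Of all genes tested, 545 (4.30%) had an absolute log2 fold change over 0.5, but only 14 (0.193%) of the 7256 genes at or above the mean level of CCNE2, the lowest of the 35, and 0 of the 35 did. For a single gene, the smallest two-sided p of an exact permutation test with 2 libraries against 2 is 0.333. In bulk RNA, a difference in the share of cells in S phase and a difference in RNA per such cell cannot be told apart.

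The direction of the group as a whole depended on the scale. The median log2 fold change of the 35 genes was 0.03 in FPKM and -0.02 in TPM, beside -0.02 and -0.07 for all genes tested, so that the group stood 0.05 above all genes on both scales. Among the 7256 genes at or above the mean level of CCNE2, the median was 0.002 in FPKM and -0.05 in TPM. In FPKM, 24 genes had a higher and 11 a lower value, and in TPM 15 had a higher and 20 a lower value. Both fluoxetine libraries were above both PBS libraries in 13 genes (16.7% of all genes tested) and below both in 4 genes (24.8% of all genes tested), and in 18 genes the groups overlapped. Of the 7256 genes at or above the mean level of CCNE2, 1540 were apart and higher and 1469 apart and lower. The tilt of all genes to lower values was thus absent at that level in FPKM, whereas the median there was -0.05 in TPM. In TPM, 7 genes were apart and higher (10.8% of all genes tested) and 10 were apart and lower (32.7% of all genes tested).

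**Figure D2:**
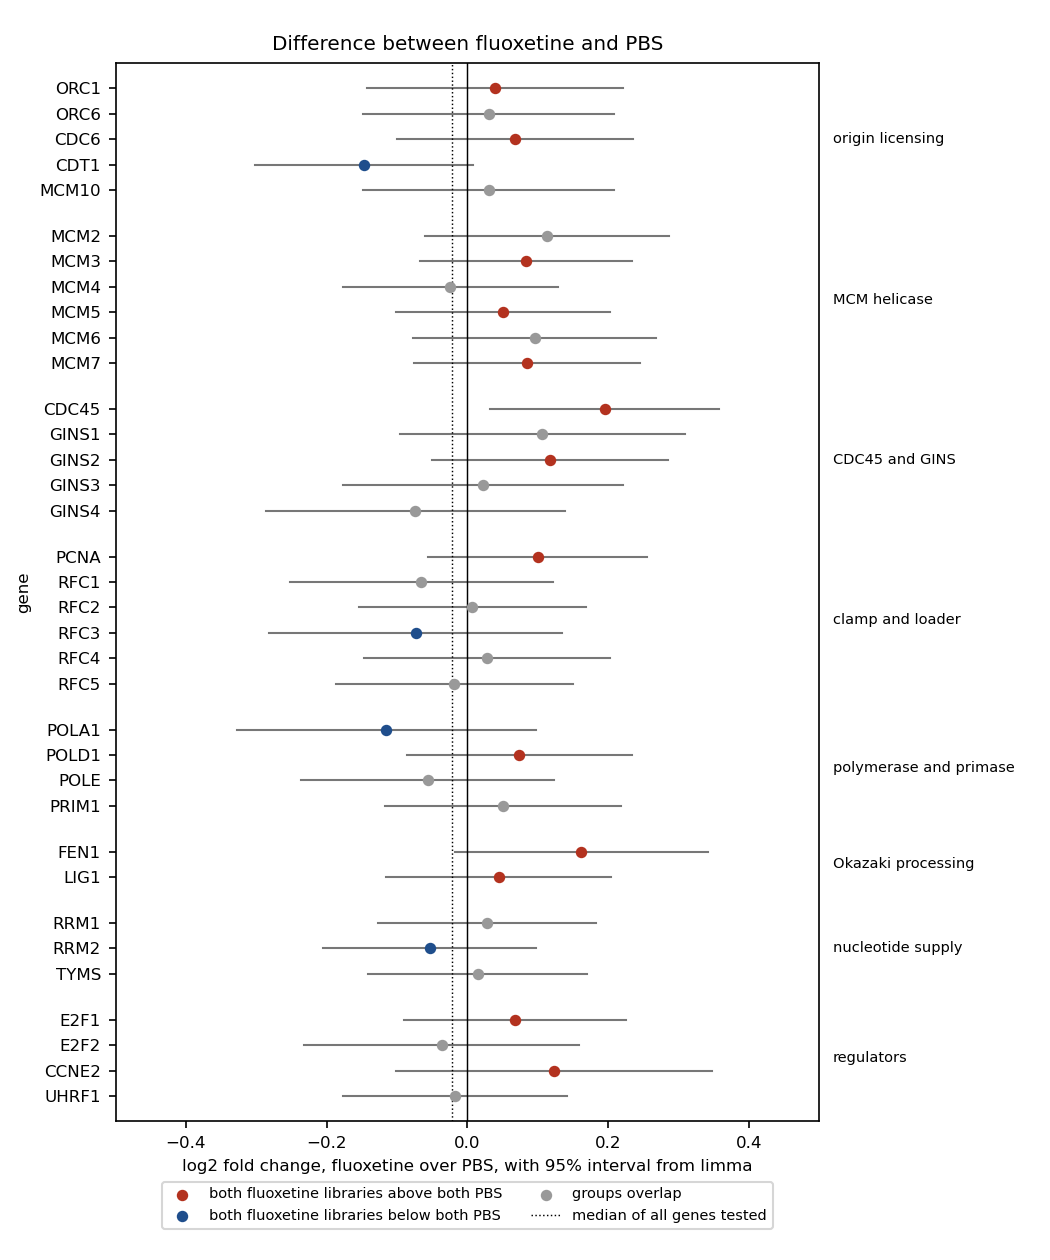
Log2 fold change of the 35 genes, fluoxetine over PBS, with 95% intervals from limma, on the FPKM scale. Red points mark 13 genes with both fluoxetine libraries above both PBS libraries, blue points 4 genes with the reverse, and grey points the 18 with overlap; only the interval of CDC45 leaves out 0.

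Among the licensing factors, CDT1, which brings the MCM ring to the origin, had the lowest fold change of all 35 genes. CDT1 (chr16:88803213-88809258, + strand) was at 58.2 and 61.8 FPKM in PBS and at 53.5 and 54.8 FPKM in fluoxetine. The fluoxetine values lay under both PBS values, with a log2 fold change of -0.15 ± 0.07 (SE, n = 2 per group; limma adjusted p = 0.586, unadjusted p = 0.0623). In limma its unadjusted p was 0.0221 in TPM (adjusted p = 0.508) and 0.0243 with the gene length trend removed (adjusted p = 0.603). CDC6, the ATPase that loads the ring together with CDT1, was at 18.4 and 19.0 FPKM in PBS and at 19.3 and 19.9 FPKM in fluoxetine. ORC1, the largest subunit of the origin recognition complex, was at 11.2 and 11.2 FPKM in PBS and at 11.6 and 11.4 FPKM in fluoxetine, with a log2 fold change of 0.04 in FPKM and -0.01 in TPM. ORC6, the smallest subunit, overlapped between PBS (16.3 and 17.9 FPKM) and fluoxetine (17.6 and 17.4 FPKM). MCM10, which helps to activate the loaded helicase, overlapped as well, at 14.0 and 14.3 FPKM in PBS and 14.9 and 14.0 FPKM in fluoxetine. CDC6 and ORC1 were thus apart and higher by small steps, and CDT1 alone among the 5 was apart and lower.

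The 6 subunits of the MCM ring differed in level far more among themselves than between conditions. MCM7 had 5.34 times the FPKM of MCM6 in PBS and 5.30 times in fluoxetine. MCM7 was at 147 and 139 FPKM in PBS and 155 and 148 FPKM in fluoxetine, and MCM6 at 27.9 and 25.7 FPKM and at 29.7 and 27.5 FPKM, respectively. MCM6 overlapped between the groups, whereas the 4 values of MCM7 were apart by less than the gap between its replicates. MCM3 (73.3 and 72.6 FPKM in PBS, 78.1 and 76.5 FPKM in fluoxetine) and MCM5 (51.7 and 53.3 FPKM in PBS, 54.3 and 54.5 FPKM in fluoxetine) were also apart and higher. MCM4 was the 1 subunit with a lower value, at 64.8 and 67.4 FPKM in PBS and 65.8 and 64.1 FPKM in fluoxetine, and its groups overlapped. MCM2 was at 82.3 and 72.4 FPKM in PBS and 81.6 and 85.5 FPKM in fluoxetine, so that 1 PBS library was within the fluoxetine range. Its log2 fold change was 0.11 over all libraries, 0.02 without PBS replicate 2 and 0.21 without PBS replicate 1. The median over the 6 subunits was 0.08 in FPKM and 0.04 in TPM, and the adjusted p (limma) was 0.668 or higher for each.

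CDC45 and GINS, which turn the MCM ring into a running helicase, included the highest fold change. CDC45 (chr22:19479459-19520612, + strand) was at 22.5 and 23.4 FPKM in PBS and at 26.7 and 26.0 FPKM in fluoxetine. The lowest fluoxetine library was above the highest PBS library by more than the gap within either group, and the log2 fold change was 0.20 ± 0.07 (SE, n = 2 per group; 95% interval 0.03 to 0.36; limma unadjusted p = 0.0225, adjusted p = 0.535). The adjusted p of CDC45 was between 0.368 and 0.989 over the alternatives, its log2 fold change was 0.15 in TPM (unadjusted p = 0.0905, limma), and it was between 0.17 and 0.22 with each library left out. GINS2 was at 17.0 and 17.3 FPKM in PBS and at 18.8 and 18.4 FPKM in fluoxetine, apart and higher (log2 fold change 0.12, limma adjusted p = 0.648). The other subunits overlapped. GINS1 was at 14.2 and 15.7 FPKM in PBS and 15.0 and 17.2 FPKM in fluoxetine, GINS3 at 9.77 and 10.2 FPKM and at 9.68 and 10.7 FPKM, and GINS4 at 7.55 and 7.15 FPKM and at 6.71 and 7.26 FPKM. GINS2 had 2.33 times the FPKM of GINS4 in PBS and 2.66 times in fluoxetine. These ratios depend in part on the lengths used, 2628 bases for GINS2 and 3826 for GINS4.

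PCNA, the clamp that holds polymerases on DNA, was at 157.2 and 156.8 FPKM in PBS and 170.6 and 165.9 FPKM in fluoxetine. Its groups were apart, with a log2 fold change of 0.10 ± 0.07 (SE, n = 2 per group; limma adjusted p = 0.674). The 5 subunits of replication factor C, which opens and places the clamp, lay on both sides of 0, from -0.07 (RFC3) to 0.03 (RFC4) on the log2 scale. RFC3 was apart and lower, at 7.32 and 6.95 FPKM in PBS and 6.84 and 6.71 FPKM in fluoxetine, and RFC1, RFC2, RFC4 and RFC5 overlapped. RFC1, the large subunit, was at 15.3 and 17.3 FPKM in PBS and 15.6 and 15.5 FPKM in fluoxetine. RFC2 (36.4 to 37.0 FPKM in PBS, 35.5 to 38.3 FPKM in fluoxetine) had 5.14 times the FPKM of RFC3 in PBS and 5.45 times in fluoxetine. RFC3 nevertheless had more solved reads than RFC2, 2707 and 2716 against 2064 and 2151 in PBS. The ratio thus comes from the lengths used, 11245 bases for RFC3 and 1699 for RFC2. RFC4 ran from 29.6 to 32.7 FPKM in PBS and from 30.6 to 33.0 FPKM in fluoxetine, and RFC5 from 21.4 to 22.9 FPKM and from 21.6 to 22.1 FPKM.

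The polymerase genes divided between higher and lower values. POLA1, the catalytic subunit that starts each strand together with primase, was at 6.67 and 7.13 FPKM in PBS and at 6.29 and 6.44 FPKM in fluoxetine. It was apart and lower, with a log2 fold change of -0.11 ± 0.10 (SE, n = 2 per group; limma adjusted p = 0.726), which was -0.02 with the gene length trend removed. POLE, which copies the leading strand, was at 21.2 and 21.1 FPKM in PBS and 19.1 and 21.6 FPKM in fluoxetine, so the fluoxetine libraries lay on either side of both PBS libraries. POLD1, which works mainly on the lagging strand, was at 50.2 and 46.2 FPKM in PBS and 51.1 and 50.2 FPKM in fluoxetine, apart and higher by less than the gap between the PBS libraries. PRIM1, the primase subunit that makes RNA primers, ran from 22.0 to 23.1 FPKM in PBS and from 22.7 to 24.0 FPKM in fluoxetine.

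FEN1, which trims the flaps left between Okazaki fragments, had the next highest fold change after CDC45. FEN1 (chr11:61792637-61797244, + strand) was at 86.2 and 74.6 FPKM in PBS and at 92.2 and 87.3 FPKM in fluoxetine. The groups were apart, but PBS replicate 1 was closer to fluoxetine replicate 2 than to the other PBS library, and the log2 fold change was 0.16 ± 0.08 (SE, n = 2 per group; limma unadjusted p = 0.073, adjusted p = 0.602). It was 0.27 without PBS replicate 1 and 0.06 without PBS replicate 2, so the size rested on which PBS library was kept. LIG1, the ligase that seals the fragments, was at 26.0 and 25.5 FPKM in PBS and 26.3 and 26.9 FPKM in fluoxetine, apart and higher with a log2 fold change of 0.04 in FPKM and -0.003 in TPM.

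The enzymes of nucleotide supply had log2 fold changes between -0.05 and 0.03 in FPKM and between -0.10 and -0.02 in TPM. RRM2, the regulated subunit of ribonucleotide reductase, was at 97.7 and 97.9 FPKM in PBS and at 95.2 and 93.3 FPKM in fluoxetine. It was apart and lower, with a log2 fold change of -0.05 ± 0.07 (SE, n = 2 per group; limma adjusted p = 0.829). RRM1, the large subunit, overlapped at 51.2 and 52.8 FPKM in PBS and 54.2 and 51.8 FPKM in fluoxetine, and the ratio of RRM2 to RRM1 was 1.88 in PBS and 1.78 in fluoxetine. TYMS, which makes thymidylate, ran from 63.4 to 66.9 FPKM in PBS and from 64.8 to 66.8 FPKM in fluoxetine.

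Of the regulators, E2F1 and CCNE2 were apart and higher. E2F1, the transcription factor whose elements were searched above, was at 40.2 and 38.5 FPKM in PBS and at 40.3 and 42.2 FPKM in fluoxetine, with a log2 fold change of 0.07 ± 0.07 (SE, n = 2 per group; limma adjusted p = 0.785). CCNE2 was at 5.72 and 5.38 FPKM in PBS and at 6.28 and 5.82 FPKM in fluoxetine, with a log2 fold change of 0.12 ± 0.10 (SE, n = 2 per group; limma adjusted p = 0.722). E2F2, a second activator of the family, overlapped at 10.1 and 9.32 FPKM in PBS and 9.47 and 9.44 FPKM in fluoxetine. UHRF1, which carries DNA methylation through replication, ran from 36.9 to 39.1 FPKM in PBS and from 36.9 to 38.1 FPKM in fluoxetine. The median log2 fold change was 0.06 for the 18 genes with an E2F element in the window and 0.03 for the 13 without. The order was the reverse in the other replication genes, at -0.002 with and 0.03 without. It was 0.03 and -0.03 in the G1/S regulators, -0.03 and -0.03 in the G2 and mitosis genes, and -0.01 and -0.02 in all genes tested. Whether the element went with the fold change was not tested.

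Gaps between replicates were set beside the difference of group means, although a gap between single libraries varies more than a difference of means. The gap between the 2 PBS libraries was larger than the group difference in 19 of the 35 genes (54.3%, against 53.3% of all genes tested), and the gap between the 2 fluoxetine libraries in 14 (40.0%, against 55.6%). The deviation of each library from a gene's mean over all libraries was also set beside gene length. Across the 35 genes (1365 to 11245 bases), its correlation with log2 length was 0.22 and 0.32 for PBS replicates 1 and 2. For fluoxetine replicates 1 and 2 it was -0.48 and -0.09. Over all genes tested it was 0.06 and 0.19 in PBS and -0.28 and 0.05 in fluoxetine. Such deviations hold the difference between treatments as well as the spread between replicates, and which of them went with length was not tested. The log2 fold change of the 35 genes had a Pearson correlation of -0.43 and a Spearman correlation of -0.35 with log2 length, given as a description since the genes share libraries. After the length trend was removed in each library, the Pearson correlation was 0.17, the log2 fold change of RFC3 went from -0.07 to 0.04 and that of POLE from -0.06 to 0.04, while that of CDC45 was 0.17 and that of CDT1 -0.16. The part of length in the fold changes as deposited was not tested beyond that removal.

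Exons of some of these genes overlap those of a neighbour in GENCODE 29, and whether reads were counted by strand is not given in the sources used here. The overlap covered 39.2% of the exon bases of TYMS (ENOSF1, opposite strand), 37.1% of CCNE2 (INTS8, opposite strand) and 20.2% of RRM2 (AC007240.1, same strand). Values of genes with such overlaps may hold reads of the neighbour or lack reads of the shared bases, depending on how those were counted. The shared part was 14.85% for PRIM1 (AC117378.1, same strand), with a further 5.42% shared with HSD17B6 and 1.35% with NACA. It was 8.94% for MCM7 (AP4M1), 8.64% for POLD1 (AC020909.1, same strand), 6.70% for FEN1 (TMEM258) and 5.73% for RFC5 (WSB2). Smaller overlaps were found for MCM2, GINS2 and RFC4, and none for CDC45 or CDT1.

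Other genes of the same processes were read from 3 lists drawn up by known function. At an unadjusted p under 0.05 in limma, 4.79% of all genes tested were lower and 3.73% higher. With the length trend removed, 558 were lower and 438 higher of 12577 genes. These shares stand beside the counts of each list below. Of 49 further replication genes, 48 were tested, 0 passed an adjusted p of 0.05, and at an unadjusted p under 0.05 0 were lower and 3 higher, or 0 and 2 with the length trend removed. The 3 were DTYMK (log2 fold change 0.26) and DUT (0.23), enzymes of thymidine nucleotide supply, and ASF1B (0.18), a histone chaperone, with adjusted p of 0.514, 0.535 and 0.538 in limma. With the length trend removed their log2 fold changes were 0.18, 0.23 and 0.13, and DUT alone of the 3 kept an unadjusted p under 0.05, with RECQL4, a helicase of the same list named here after its values were seen, as the other gene. MCM8, a relative of the MCM ring subunits used in repair, had the lowest fold change of these genes, at -0.20 (limma adjusted p = 0.613) and at -0.08 with the length trend removed. The median over the 48 was 0.03 in FPKM and -0.02 in TPM, as it was for the 35 genes.

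Of 27 E2F family members and G1/S regulators, 26 were tested and 0 passed an adjusted p of 0.05, with 1 lower and 2 higher at an unadjusted p under 0.05, or 0 and 1 (CDK4) with the length trend removed. CDK4, a kinase that phosphorylates RB in G1, was at 81.5 and 70.8 FPKM in PBS and 97.5 and 87.3 FPKM in fluoxetine, with a log2 fold change of 0.28 (limma adjusted p = 0.409) and 0.24 once the length trend was removed. CDK6, its close relative, was at 16.9 and 18.1 FPKM in PBS and 14.1 and 15.9 FPKM in fluoxetine, with -0.23 (limma adjusted p = 0.537) and -0.11 once the length trend was removed. CDKN2C, an inhibitor of both kinases, had a log2 fold change of 0.20 (limma adjusted p = 0.552) and 0.16 once the length trend was removed, and FBXO5, an inhibitor of the anaphase-promoting complex, had -0.16 with overlapping groups (limma adjusted p = 0.642). The median of these 26 genes was -0.02 in FPKM and -0.06 in TPM.

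Of 20 G2 and mitosis genes, 0 passed an adjusted p of 0.05, and 0 were lower and 3 higher at an unadjusted p under 0.05, with or without the length trend. AURKB, a kinase of chromosome segregation (log2 fold change 0.21, limma adjusted p = 0.497), CCNB1, the mitotic cyclin B1 (0.20, limma adjusted p = 0.535), and BIRC5, a partner of AURKB (0.18, limma adjusted p = 0.552), had the higher values. MKI67, the proliferation marker, was at 46.3 and 53.7 FPKM in PBS and 41.1 and 47.0 FPKM in fluoxetine, with overlapping groups and a log2 fold change of -0.18 (limma adjusted p = 0.598) that was -0.05 with the length trend removed. The median of the 20 genes was -0.03 in FPKM and -0.07 in TPM. Whether the replication genes and the mitosis genes differed in their change was not tested.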

How the data were processed

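The deposited values were FPKM per gene and library, made by the authors from mapped fragments, gene length and depth; the submitters' processing notes name fastp, HISAT2, HTSeq and GRCh38. Annotation, versions and strand setting are not given in the sources used here. The labels name a TruSeq stranded mRNA kit and the study's text a VAHTS kit. Samples were grouped by treatment label, and 0 table columns were left without a sample.

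The 12663 genes whose FPKM averaged 0.1 or more were tested on log2(FPKM + 0.1) with limma 3.58.1 (lmFit, eBayes with trend; R 4.3.3), with Benjamini-Hochberg adjustment over all of them. FPKM do not hold counts, so a count test was not the main test. Whole reads were solved from FPKM ratios between libraries (within 0.004 of a read, 99.4% of values above 0), and may be fractions of the true reads by a common factor. Gene lengths are those the solved reads imply at a depth set from GENCODE 29 exon lengths, so they rest on that annotation. Gene locations came from GENCODE 29. Other steps ran in Python 3.11.15 (matplotlib 3.10.9, scipy 1.17.1, pandas 2.3.3, numpy 2.4.6).

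The genes and lists were chosen with earlier results of these data known. All 35 genes are named, and of each other list the 4 with the largest absolute log2 fold change at a mean FPKM of at least 1, beside any with an adjusted p under 0.05. The results for 3 marker genes are not reported here.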

Additional observations from a re-analysis of the deposited data

How the results depend on the processing

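No alternative gave any of the 35 genes an adjusted p under 0.05; the lowest was 0.368 (CDC45, limma voom on solved reads). The settings tried were a pseudocount of 0.01 or 1, a filter at a mean FPKM of 1 or none at all, TPM, quantile normalization, median centring, removal of the length trend (lowess, span 0.3), eBayes without the trend or robust, voom, a replicate block and leaving out each library; the lone sample then left in a group is assumed to vary like the others. At an unadjusted p under 0.05, 1 gene was lower (CDT1) with no filter, in TPM, under quantile normalization and with the length trend removed. The genes higher were 0 without the trend and in TPM, 2 with no filter (CDC45 and GINS2), under voom and under the replicate block (CDC45 and FEN1), and 0 to 2 with a library left out (0 without fluoxetine replicate 1, MCM2 and FEN1 without PBS replicate 1). Genes apart and lower were 10 in TPM (32.7% of all genes), 2 after median centring (19.9%), and 7 to 9 with a library left out (36.3% to 43.3%, since 1 library against 2 overlaps less often for any gene). Genes apart and higher were 7 in TPM (10.8% of all genes) and under quantile normalization (19.3%), and 17 to 21 with a library left out (29.1% to 32.8%). Their median log2 fold change was -0.017 in TPM and 0.057 after median centring. Signs of single genes changed for 11 with the length trend removed and 9 in TPM. They changed for 3 after median centring, 3 under quantile normalization and 1 to 7 with a library left out.

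Over all genes, 30 adjusted calls became 64 under the replicate block, 64 under voom, 16 under quantile normalization, 0 without the trend (933 at an unadjusted p under 0.05) and 0 with no filter (1175 at an unadjusted p under 0.05), all in limma; with a library left out they were 2 (PBS replicate 1) to 12 (fluoxetine replicate 2). Deviations from the group means correlated by 0.0351 between libraries of the same number, and by 0.101 at a mean FPKM of at least 10, so the numbers were not taken to pair samples; all 30 genes were among the 64 of the block. Each gene rests on 2 libraries a group, and 34 of the 35 intervals held 0.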
